A study of Homo sapiens with 7 samples.

Results

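Broad SPT5 domains are the stretches of chromatin over which the deposited SPT5 peak list runs without a break for 2000 bp or more. They were selected on the width of the SPT5 peak alone, and 2445 of the 54885 SPT5 peaks on chromosomes 1 to 22 met the rule (4.45%). The other 52440 SPT5 peaks are called narrower here, and the 6550 of them that were at least 1000 bp wide, called peaks of 1 to 2 kb, served as the nearest class in size.

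The peaks come from chromatin immunoprecipitation with sequencing (ChIP-seq) of BJAB, an established human line of B cells from a Burkitt's lymphoma. Cells of this single line were fixed in 1% formaldehyde for 5 min, and 1 library each was made with antibodies to RNA polymerase II (Pol II, clone 8WG16), SPT5, TRIM28, O-GlcNAcase (OGA, antibody NCOAT) and the sugar O-GlcNAc (clone RL2). The 2 libraries made with mouse and rabbit IgG were not analysed here. No antibody had a replicate and the depth of each library is unknown, so the 95% intervals given here hold for these lists and for counting error alone. Neighbouring peaks are not independent sites, so the intervals are narrower than they should be.

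SPT5 and SPT4 form DSIF, the complex that binds transcribing Pol II, holds it in the promoter-proximal pause together with NELF, and stays with it through elongation after P-TEFb acts on the complex. TRIM28, also called KAP1 or TIF1b, is a corepressor brought to DNA by KRAB zinc finger proteins and is also known as a factor of Pol II pausing. O-GlcNAc is a single sugar placed on serines and threonines of nuclear proteins, Pol II among them, by O-GlcNAc transferase, and OGA removes it. The 8WG16 antibody is known to prefer repeats of the Pol II C-terminal domain that carry little phosphate.

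The domains were few but took up a large part of the bases called for SPT5. They covered 8.43 Mb, or 22.9% of all bases in SPT5 peaks. Their median width was 2775 bp with quartiles of 2289 and 3683 bp, and the widest spanned 27057 bp. They were also high as well as wide: the authors' fold enrichment over a background not given in the sources used here had a median of 7.63 in the domains, 6.99 in peaks of 1 to 2 kb and 3.23 in all narrower peaks. Height within the domains ran from 1.60 to 28.1, so width did not fix it. Because width chose the domains and height comes from the same list, both are description, and the fold enrichment is compared within 1 list only.

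Breadth of this kind was nearly absent from the other lists. Peaks of 2000 bp or more numbered 251 in the Pol II list (1.298%), 4 in the TRIM28 list and 0 in the OGA and O-GlcNAc lists. Of the 251 broad Pol II peaks, 247 overlapped a broad SPT5 domain (98.4%), where the share over all 19336 Pol II peaks was 16.8%. A broad Pol II peak also has more bases with which to touch a domain. Yet only 234 domains held such a Pol II peak (9.57%). Most of the SPT5 domains therefore lay over Pol II peaks of ordinary width or over none.

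Peaks just inside and just outside the threshold varied among themselves. Of the 3 named domains of exactly 2000 bp, the one on chromosome 8 had an SPT5 fold enrichment of 15.3 and 2 Pol II peaks. The one at chromosome 11, 66133172 to 66135171 (hg19, as all positions here) had 5.37 and no peak of another list, and the one at chromosome 15, 50646004 to 50648003 had 9.11 and a peak of every other list. Just outside, the named peaks 1 bp narrower, on chromosomes 1, 16 and 17, had fold enrichments of 5.66, 4.73 and 11.1. The second of these held no peak of another list, while the first held 1 Pol II peak and the third held 1 Pol II, 1 TRIM28 and 2 O-GlcNAc peaks.

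The highest point of SPT5, its summit, was seldom at the edge of a domain and was not strictly central. It lay at a median of 32.5% of the width from the nearest end (quartiles 22.01% and 41.2%), which was 909 bp. In peaks of 1 to 2 kb the median was 34.0% and in all narrower peaks 36.7%. A summit in the middle 20% of the width was found in 28.3% of domains, 31.8% of peaks of 1 to 2 kb and 38.9% of narrower peaks. A summit within 10% of the width from an end was found in 104 domains (4.25%), against 1.42% and 2.1% in those classes.

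Summits near an end were most frequent in the widest domains, though still a minority there. The share with the summit within 10% of an end was 2.82% in the 921 domains of 2000 to 2500 bp. It was 4.52% at 2500 to 3000 bp, 2.62% at 3000 to 4000 bp and 5.79% at 4000 to 6000 bp. In the 191 domains of 6000 bp or more it was 12.0%. Of the 5 widest, 2 had the summit in those outer stretches, at 6.02% and 7.27% of the width from an end. When SPT5 peaks within 500 bp of each other were joined first, the share over all domains was 10.8%, and when the edge was set at a fixed 250 bp it was 2.58%. The summit had no preferred side on the genome: it lay left of the midpoint in 49.7% of domains. These are values of the selected list and carry no test.

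**Figure D1:**
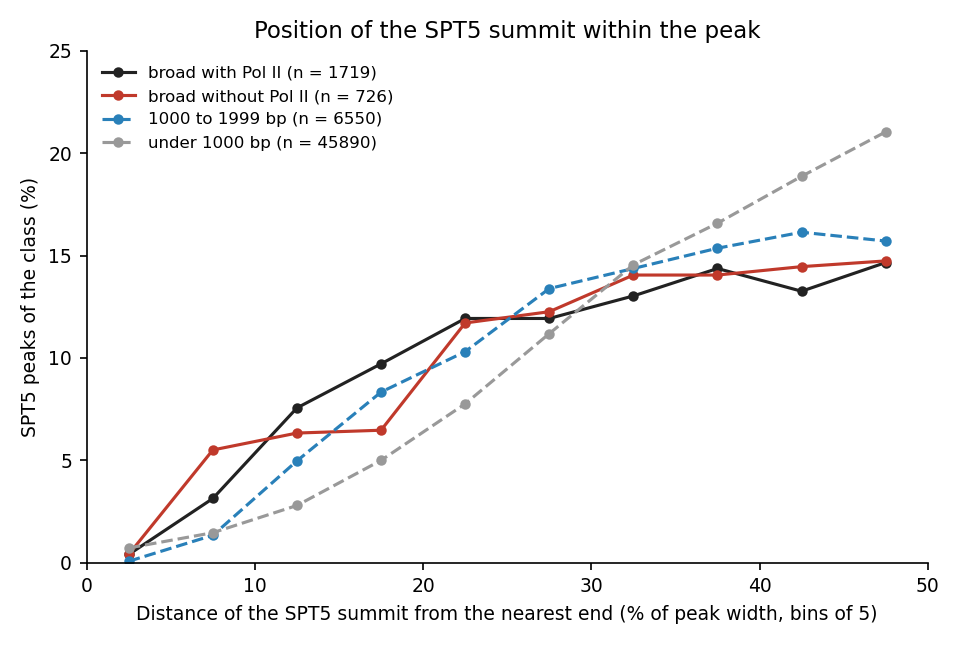
Position of the SPT5 summit within the peak: the x axis gives the distance from the nearest end in percent of the width (50 is the centre, bins of 5), and the y axis the percent of SPT5 peaks of each class. Solid lines are broad domains with (n = 1719) and without Pol II (n = 726), dashed lines the narrower classes. Summits within 10% of an end made up 3.55% of domains with Pol II and 5.92% of those without, and peaks under 1000 bp were the most centred.

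Pol II and TRIM28 were present in most domains, O-GlcNAc in fewer and OGA in few. A Pol II peak overlapped 1719 of the 2445 domains by 1 bp or more (70.3%, Wilson interval 68.5% to 72.1%), where the share over all SPT5 peaks was 28.9%. A TRIM28 peak overlapped 1525 domains (62.4%, 60.4% to 64.3%), against 30.7% of all SPT5 peaks. An O-GlcNAc peak overlapped 781 domains (31.9%, 30.1% to 33.8%), against 14.1% of all SPT5 peaks. An OGA peak overlapped 289 domains (11.8%, 10.6% to 13.2%), against 3.21% of all SPT5 peaks.

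All 4 shares were above those of narrower SPT5 peaks, with Newcombe intervals of the difference that did not reach 0. The difference was 43.4 percentage points for Pol II (41.5 to 45.2), 33.1 for TRIM28 (31.1 to 35.1), 18.6 for O-GlcNAc (16.8 to 20.5) and 9.01 for OGA (7.78 to 10.4). The order of the lists below Pol II was not kept when they were cut to equal length. Cutting also left only the strongest peaks, and the parts of length and strength were not tested. With each list shortened to the length of the OGA list by its strongest peaks, Pol II overlapped 18.8% of domains, O-GlcNAc 9.28% and TRIM28 1.84%, so that OGA then stood above TRIM28 and O-GlcNAc.

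Most of the gap to narrower peaks lay below 1000 bp. Pol II overlapped 3.20% of SPT5 peaks under 250 bp and 68.8% of those of 1000 to 1500 bp. From there the share stayed between 63.7% and 77.5% in every width class up to the widest. Against peaks of 1 to 2 kb, the domains had no clear difference for Pol II (1.01 points higher, interval −1.14 to 3.12) and a small one for TRIM28 (2.31 points, 0.042 to 4.55). OGA was still more frequent in domains, by 4.202 points (2.81 to 5.68). O-GlcNAc was less frequent, with a difference of −8.18 points (−10.4 to −5.96).

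O-GlcNAc thinned out as SPT5 spread. By classes of width, each excluding its upper bound, its share was 40.3% at 1000 to 1500 bp, 39.8% at 1500 to 2000 bp, 38.3% at 2000 to 2500 bp, 32.8% at 2500 to 3000 bp, 26.6% at 3000 to 4000 bp, 24.4% at 4000 to 6000 bp and 25.7% from 6000 bp. OGA did not follow this course: it was at 10.9% at 2000 to 2500 bp, 10.4% at 2500 to 3000 bp, 9.27% at 3000 to 4000 bp, 14.9% at 4000 to 6000 bp and 21.5% from 6000 bp. Per 10 kb of domain, OGA peaks numbered 0.514, 0.417, 0.303, 0.356 and 0.356 in the same classes. The interval of the OGA share in the widest class, 16.2% to 27.8%, did not overlap that of the first broad class, 9.01% to 13.0%. A wider domain offers more bases for a peak to touch, however. Within 250 bp of the SPT5 summit the OGA shares of these classes were 8.90% (5.63% to 13.8%) and 7.49% (5.96% to 9.37%). Pol II and TRIM28 were also at their highest in the widest class, at 77.5% and 73.3%.

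A wide peak offers more bases for another peak to touch, so the shares were also taken in a fixed window of 250 bp on each side of the SPT5 summit. In that window Pol II was found at 66.7% of domains, TRIM28 at 51.6%, O-GlcNAc at 28.8% and OGA at 7.12%. The differences from narrower peaks were still above 0, at 39.5, 22.6, 15.6 and 4.37 points in the same order. Against peaks of 1 to 2 kb they were −1.62 for Pol II (−3.81 to 0.545), −3.44 for TRIM28 (−5.76 to −1.12), −9.97 for O-GlcNAc (−12.1 to −7.80) and 0.292 for OGA (−0.854 to 1.53). The surplus of OGA in domains over that class was thus not detectable at the summit, and the lower share of O-GlcNAc was.

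**Figure D2:**
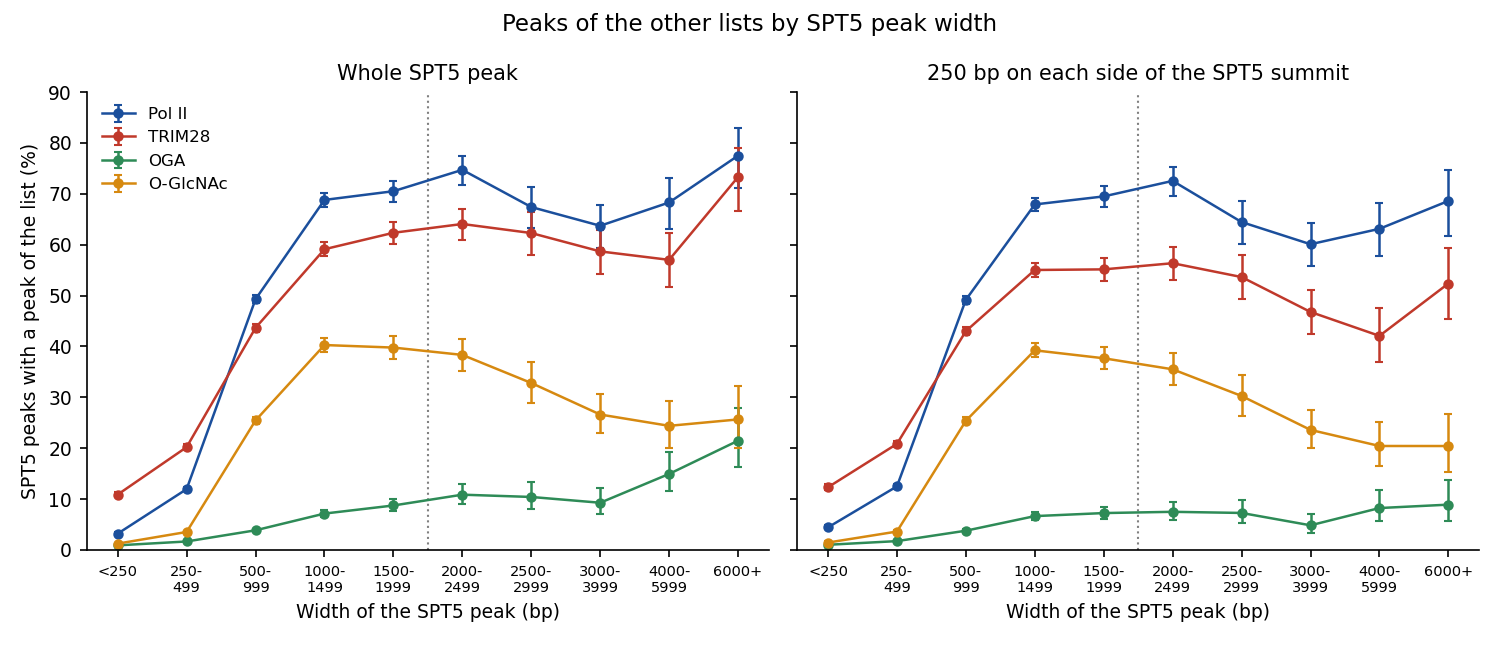
Percent of SPT5 peaks with a peak of each other list (y axis) by width of the SPT5 peak (x axis, bp), over the whole peak (left) and within 250 bp of the SPT5 summit (right). Points are shares with 95% Wilson intervals, and the dotted line marks 2000 bp. O-GlcNAc fell from 40.3% at 1000 to 1500 bp to 25.7% from 6000 bp over the whole peak, while OGA went from 10.9% at 2000 to 2500 bp to 21.5% from 6000 bp on the left, and from 7.49% to 8.90% on the right.

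Domains were also compared with SPT5 peaks of equal height, in 10 strata of SPT5 fold enrichment bounded by the deciles of the domains. At equal height, Pol II was found less often in domains than in narrower peaks, with a difference of −6.82 points over strata (−8.39 to −5.24). So was O-GlcNAc, with a difference of −13.9 points (−15.6 to −12.1). The direction for both was thus opposite to the unstratified one. TRIM28 was 2.78 points more frequent (0.899 to 4.67) and OGA 6.19 points (4.89 to 7.50). The TRIM28 value pools strata of opposite direction. In the lowest stratum TRIM28 overlapped 33.1% of domains and 18.3% of narrower peaks. In that of 5.82 to 6.71 the shares were 43.4% and 58.7%, and in the highest 88.6% and 73.0%. In the summit window the stratified difference of TRIM28 turned to −5.68 points.

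At equal height the nearest class in size gave the same directions, except for TRIM28. Against peaks of 1 to 2 kb the stratified differences were −6.84 points for Pol II, −2.75 for TRIM28, −13.6 for O-GlcNAc and 3.67 for OGA. The gap was widest at middling heights. In the stratum of 5.82 to 6.71, Pol II overlapped 57.4% of 244 domains and 79.2% of 485 peaks of 1 to 2 kb, and O-GlcNAc overlapped 14.8% and 38.1%. In the highest stratum, 13.3 to 28.1, Pol II overlapped 100% of 245 domains and 99.6% of 523 such peaks, and O-GlcNAc 59.6% and 67.7%. TRIM28 changed direction here too, at 43.4% and 63.9% in the former stratum and 88.6% and 78.8% in the latter. The lowest stratum is wide, 1.27 to 4.28, and the domains in it can still differ in height from the narrower peaks. There the Pol II and O-GlcNAc shares were higher in domains, though little so for O-GlcNAc against peaks of 1 to 2 kb. Pol II overlapped 27.35% of 245 domains, 19.4% of 1468 peaks of 1 to 2 kb and 8.23% of 38250 narrower peaks. For O-GlcNAc the shares were 4.08%, 3.20% and 2.00%, and no interval was taken of the differences in this stratum. In the summit window Pol II was at 18.4% of these domains and 17.6% of the peaks of 1 to 2 kb.

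**Figure D3:**
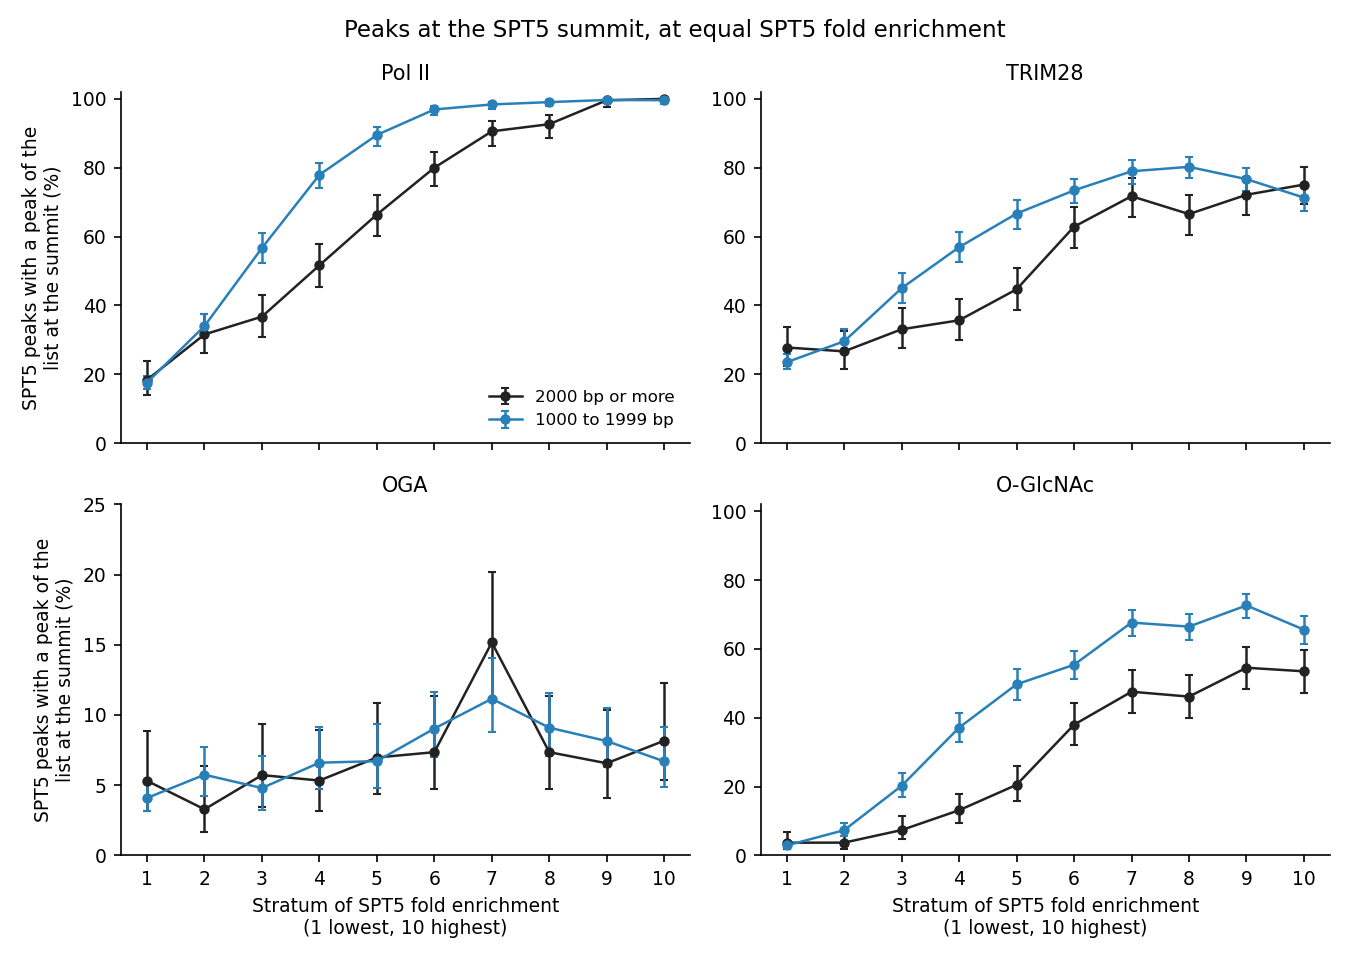
Percent of SPT5 peaks with a peak of each other list within 250 bp of the SPT5 summit (y axis) in 10 strata of SPT5 fold enrichment (x axis), for domains of 2000 bp or more (black) and peaks of 1 to 2 kb (blue), with 95% Wilson intervals. O-GlcNAc was lower in domains from the third stratum up, Pol II mainly in strata 3 to 8, and OGA (own y scale) showed no such separation.

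Peaks of the other lists were sparser per base in domains than in the class below. Per 10 kb of SPT5 domain there were 3.85 Pol II peaks, 3.38 TRIM28 peaks, 1.08 O-GlcNAc peaks and 0.394 OGA peaks. In SPT5 peaks of 1 to 2 kb these densities were 6.19, 5.59, 3.18 and 0.573. The density divides by SPT5 width, and the part of width in it was not tested. Counted per SPT5 peak, domains held more Pol II (mean 1.33 against 0.842), TRIM28 (1.16 against 0.761) and OGA peaks (0.136 against 0.0779). Only O-GlcNAc peaks were fewer by that count, at 0.371 against 0.432. Pol II peaks covered 33.7% of the bases of the domains and O-GlcNAc peaks 4.57%, against 44.0% and 14.4% in that class. Most bases of the domains thus lay outside the peaks of each other list.

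The other factors combined in a few recurrent ways. The largest group, 604 domains (24.7%), held no peak of any other list. Pol II with TRIM28 marked 582 domains (23.8%), and the same pair with O-GlcNAc marked 556 (22.7%). Pol II alone was present in 226, all 4 lists in 138 (5.64%), Pol II with TRIM28 and OGA in 133, TRIM28 alone in 105 and Pol II with O-GlcNAc in 76. The other 7 combinations held 8 domains or fewer each.

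TRIM28, OGA and O-GlcNAc were found mainly in the domains that held Pol II. TRIM28 was present in 82.0% of the 1719 domains with Pol II and 16.0% of the 726 without, a difference of 66.0 points (62.6 to 69.0). O-GlcNAc was present in 45.0% and 1.10%, a difference of 43.9 points (41.3 to 46.3). OGA was present in 16.2% and 1.38%, a difference of 14.9 points (12.8 to 16.8). The TRIM28 difference was 0.684 points, with an interval that reached 0, when the lists were shortened to the OGA length. The domains with Pol II were higher in SPT5 (median fold enrichment 9.14 against 5.25) and of similar width (2713 against 2875 bp), and the part of height in these differences was not tested. The contrast was not particular to domains. In peaks of 1 to 2 kb with and without Pol II, TRIM28 was at 79.2% and 16.9%. O-GlcNAc was at 57.1% and 1.89% in those peaks, and OGA at 9.98% and 2.29%.

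OGA was found mainly in domains with TRIM28. It was present in 280 of 1525 domains with TRIM28 (18.4%) and 9 of 920 without (0.978%), a difference of 17.4 points (15.3 to 19.5). Within domains that held Pol II the shares were 19.2% of 1409 with TRIM28 and 2.58% of 310 without. O-GlcNAc in the same domains was at 49.3% and 25.5%. Of the 332 OGA peaks that lay in domains, 93.1% were overlapped by a TRIM28 peak, 88.3% by a Pol II peak and 32.8% by an O-GlcNAc peak (28.0% to 38.1%). For the 509 OGA peaks in SPT5 peaks of 1 to 2 kb, the O-GlcNAc share was 52.3% (47.9% to 56.6%), while the TRIM28 and Pol II shares were 94.5% and 87.6%.

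Among SPT5 peaks that all carried Pol II, domains still held less O-GlcNAc and more OGA. O-GlcNAc was present in 45.0% of the domains and 57.1% of the peaks of 1 to 2 kb, a difference of −12.1 points (−14.8 to −9.33). OGA was present in 16.2% and 9.98%, a difference of 6.25 points (4.35 to 8.25). At the summit alone the OGA difference was 0.822 points, with an interval of −0.743 to 2.51.

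Many domains held several Pol II peaks. There was 1 Pol II peak in 755 domains, 2 in 623, 3 in 223 and 4 or more in 118, whose median width was 6212 bp. The most in 1 domain was 16. TRIM28 had 2 or more peaks in 836 domains, O-GlcNAc in 113 and OGA in 33.

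The SPT5 summit sat on the strongest Pol II peak in most of these domains. The highest Pol II summit was on the same side of the midpoint as the SPT5 summit in 1442 of 1719 domains (83.9%, 82.1% to 85.6%) and within 250 bp of it in 72.8%. In the 964 domains with 2 or more Pol II peaks, the one nearest the SPT5 summit was also the highest in 76.9%. The highest lay at a median of 27 bp and the lowest at 940.5 bp from the SPT5 summit. The outermost Pol II summits of those domains were a median of 1336 bp apart, and in 77.0% of them Pol II summits stood on both sides of the midpoint.

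By the nearest summit in each domain that a list overlapped, Pol II was closest to the SPT5 summit and OGA farthest. TRIM28 and O-GlcNAc lay between them, at medians whose intervals overlapped. The nearest Pol II summit was at a median of 25 bp (order-statistic interval 23 to 27), TRIM28 at 156 bp (147 to 171), O-GlcNAc at 179 bp (166 to 185) and OGA at 275 bp (222 to 347). In peaks of 1 to 2 kb the medians were 22, 122, 155 and 143 bp, so the classes differed most for OGA. The width of the SPT5 peak limits these distances, and its part in that difference was not tested. The share within 50 bp was 66.4% for Pol II, 22.95% for TRIM28, 15.2% for OGA and 6.15% for O-GlcNAc. The OGA median was 394 bp in domains of 3000 bp or more. With lists shortened to the OGA length, the TRIM28 median was 451 bp (252 to 1044), above that of OGA with an overlapping interval. OGA was thus not clearly the farthest with shortened lists, where TRIM28 overlapped 45 domains and only its strongest peaks were kept. The parts of list length and peak strength were not tested. Over all peaks inside domains, not only the nearest, the order was another. Those medians were 196 bp for O-GlcNAc, 345.5 bp for OGA, 481 bp for Pol II and 508.5 bp for TRIM28.

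O-GlcNAc summits stood more often beside the SPT5 summit than on it. Counted in bins of 100 bp, with the farther end of the domain taken as the positive side, 187 O-GlcNAc summits lay 100 to 200 bp before the SPT5 summit and 140 lay 100 to 200 bp beyond it. The 2 bins that touch the summit held 82 and 58. Pol II had the opposite shape, with 602 and 672 summits in the 2 bins at the SPT5 summit and 50 and 53 in the bins next to them. TRIM28 fell off on both sides without such a gap, from 317 and 256 summits at the centre to 172 and 149 in the next bins.

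**Figure D4:**
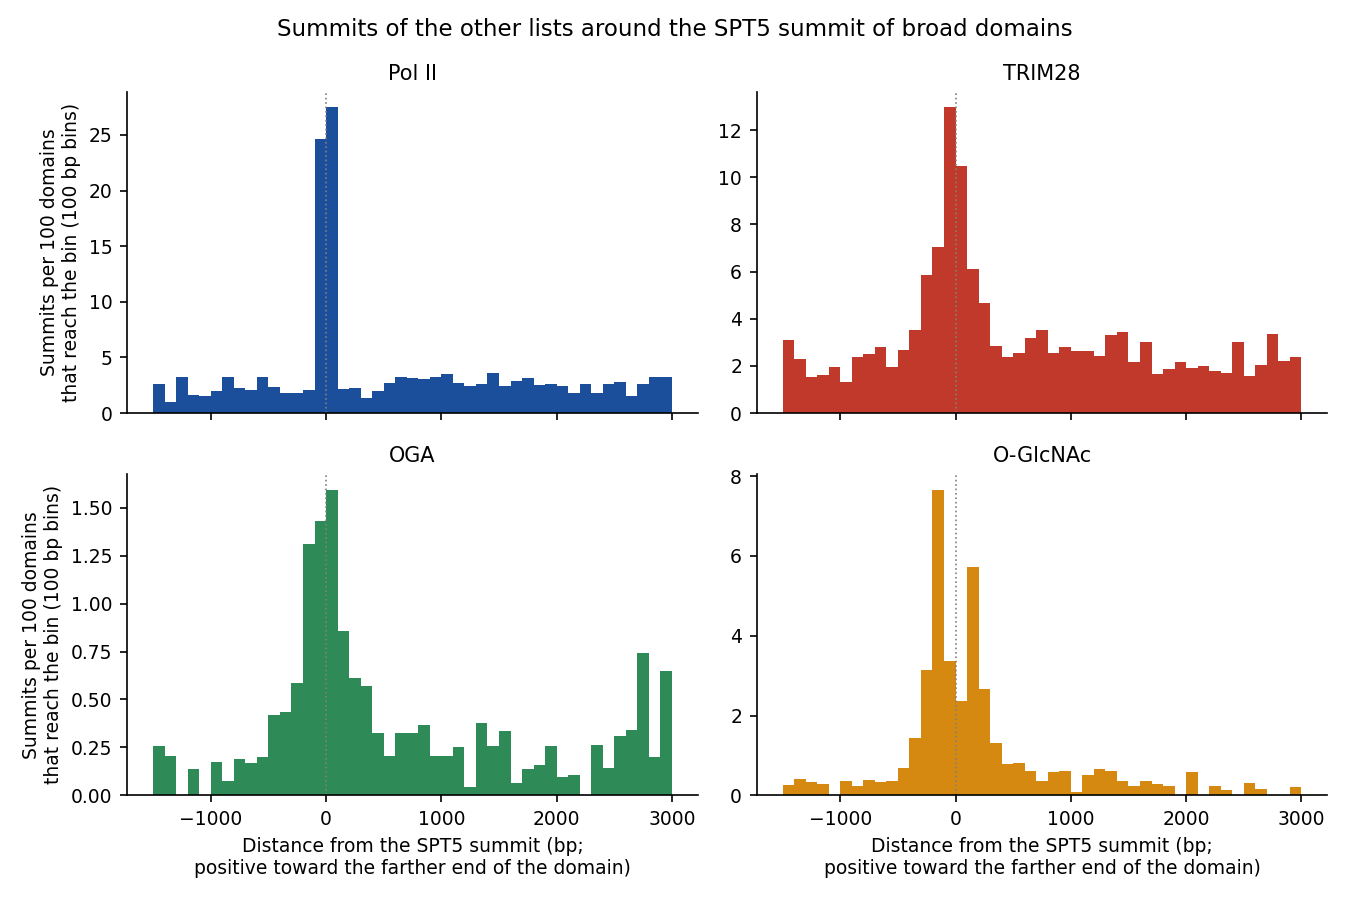
Summits of each other list per 100 domains that reach the bin (y axis, own scale per panel) by distance from the SPT5 summit in bins of 100 bp (x axis, positive toward the farther end of the domain). Pol II is concentrated in the 2 central bins, and O-GlcNAc has its highest bins at 100 to 200 bp on both sides, with 187 and 140 summits.

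Pol II peaks away from the SPT5 summit were lower, and O-GlcNAc peaks had the largest share near it. Of the Pol II peaks in domains, 43.9% had the summit within 250 bp of the SPT5 summit, and those had a median Pol II fold enrichment of 6.52 against 3.30 for the rest. For O-GlcNAc 62.5% of the peaks were within 250 bp, for OGA 41.0% and for TRIM28 36.0%. TRIM28 height did not follow this division, at 2.84 near the summit and 2.88 elsewhere.

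The 5 widest domains are examples of how the peaks lay inside. The widest, at chromosome 9, 130719708 to 130746764, had an SPT5 fold enrichment of 13.9 with the summit at 13.1% of the width from its right end. It held 6 Pol II, 5 TRIM28, 2 OGA and 1 O-GlcNAc peaks, and all 6 Pol II summits lay within 3383 bp of the SPT5 summit. The highest of them, with a Pol II fold enrichment of 8.47, was 5 bp from it. Left of the outermost of these Pol II peaks, the domain held 1 TRIM28 peak, with its summit 9755 bp from the SPT5 summit, and no peak of the other lists.

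The other 4 varied in how far Pol II filled them. At chromosome 1, 8916477 to 8940129 (23653 bp), 3 Pol II peaks covered 7.20% of the domain, while at chromosome 19, 35818420 to 35841788 (23369 bp), 7 Pol II peaks covered 90.8%. The domain at chromosome 20, 55963866 to 55986073 had 8 Pol II and 9 TRIM28 peaks. The domain at chromosome 17, 80193538 to 80215079 (21542 bp) had 1 peak each of Pol II, TRIM28 and OGA, and its Pol II summit was 1854 bp from the SPT5 summit. In the first 4 of the 5 widest the nearest Pol II summit was within 28 bp.

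In the highest stratum of SPT5 fold enrichment, Pol II overlapped 100% of 245 domains and OGA 16.3%. Over all domains the shares were 70.3% and 11.8%. The 5 domains highest in SPT5 all carried Pol II and none carried OGA. Their SPT5 fold enrichments ran from 22.8 to 28.1, the highest being at chromosome 11, 118963689 to 118966730, a domain of 3042 bp with 2 Pol II peaks and 1 O-GlcNAc peak. Their nearest Pol II summits were 30, 3, 9, 1 and 5 bp away. The fifth, at chromosome 1, 32793669 to 32802111, had its SPT5 summit at 3.84% of the width from an end and a Pol II peak of 22.4-fold enrichment there.

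OGA could be strong away from the SPT5 summit. Of the domains with all 4 other lists, the one with the highest OGA peak was at chromosome 19, 49954665 to 49957559. Its OGA peak had a fold enrichment of 19.4 and its summit was 1739 bp from the SPT5 summit. Beside it were an O-GlcNAc summit at 1789 bp, a TRIM28 summit at 1805 bp and a Pol II summit at 1877 bp. The next 4 by OGA had OGA fold enrichments of 15.8, 14.0, 13.9 and 11.3, with distances of 391, 1331, 254 and 172 bp.

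The 3 domains with the most Pol II peaks were below the median of all domains in SPT5 height and had no OGA or O-GlcNAc peak inside. They were not typical in height, since the 118 domains with 4 or more Pol II peaks had a median SPT5 fold enrichment of 9.17. The median over all domains was 7.63, and OGA and O-GlcNAc overlapped 11.8% and 31.9% of all domains. The domain at chromosome 16, 81821193 to 81834912 had 16 Pol II peaks with fold enrichments from 2.103 to 3.18, spread over nearly its whole 13720 bp, and an SPT5 fold enrichment of 3.34. The next, at chromosome 17, 3853442 to 3861963 and at chromosome 22, 23234452 to 23249799, had 11 and 9 Pol II peaks and SPT5 fold enrichments of 4.98 and 7.11.

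A domain without Pol II was not always near it. The gap from the 726 domains without Pol II to the nearest Pol II peak had a median of 9721 bp (8626 to 11369), and it was within 10 kb for 368 of them (50.7%). In those peaks of 1 to 2 kb that lacked Pol II the median gap was 10002 bp. The SPT5 summit did not lean toward the nearest Pol II peak: it was on the nearer side of the midpoint in 51.1% of these domains (47.5% to 54.7%).

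Domains without Pol II stood among other SPT5 peaks. They had a mean of 8.11 other SPT5 summits within 10 kb of their ends, against 5.10 for domains with Pol II, and the median gap to the next SPT5 peak was 142 against 266 bp. Peaks of 1 to 2 kb showed the same contrast, with means of 7.82 without and 2.69 with Pol II and median gaps of 184 and 1564 bp. The widest without Pol II was at chromosome 7, 2688260 to 2704860 (16601 bp, SPT5 fold enrichment 9.17). It held no peak of any other list, and neither did those at chromosome 11, 76365669 to 76379660 (13992 bp) and at chromosome 3, 48553289 to 48565789 (12501 bp). The domain at chromosome 1, 226904722 to 226918325 (13604 bp) held 2 TRIM28 peaks, 6587 and 7339 bp from the SPT5 summit. The 3 without any other list had 11, 5 and 13 other SPT5 summits within 10 kb of their ends.

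The flanks of domains, 10 kb on each side, were richer in Pol II, TRIM28 and OGA summits than those of narrower peaks, and less clearly so in O-GlcNAc. A Pol II summit was found there for 55.7% of domains, against 45.2% of all SPT5 peaks, and a TRIM28 summit for 67.9%, against 59.3%. For OGA the shares were 13.0% and 9.04%, and for O-GlcNAc 23.2% and 21.5%. Against narrower peaks the differences were 11.0 points for Pol II (9.01 to 13.0), 9.06 for TRIM28 (7.14 to 10.9), 4.15 for OGA (2.85 to 5.56) and 1.80 for O-GlcNAc (0.134 to 3.55). The O-GlcNAc difference was −1.08 points with flanks of 5 kb, with an interval that reached 0 (−2.32 to 0.280). Its interval also reached 0 for domains from 1500 bp (1.00 points) and from 3000 bp (0.972 points). At equal SPT5 height the differences were larger, at 18.2, 16.8, 7.19 and 6.12 points in the same order.

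For TRIM28, OGA and O-GlcNAc the surplus in the flanks was not next to the domain. In the first 1 kb outside, domains had 13.95 TRIM28, 0.777 OGA and 1.35 O-GlcNAc summits per 100 domains, below the 17.6, 1.33 and 3.73 of SPT5 peaks under 1000 bp. Peaks of 1 to 2 kb had 13.7, 0.702 and 1.86 there, near the values of the domains for TRIM28 and OGA. At 4 to 5 kb the domains had 18.9 TRIM28, 1.80 OGA and 3.19 O-GlcNAc summits. Peaks under 1000 bp had 12.5, 0.920 and 2.40 at that distance, and peaks of 1 to 2 kb had 12.5, 0.977 and 2.89. Pol II was higher beside domains at both distances, at 12.7 and 14.1 per 100 domains, against 11.3 and 8.18 for peaks under 1000 bp and 10.3 and 8.87 for peaks of 1 to 2 kb.

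**Figure D5:**
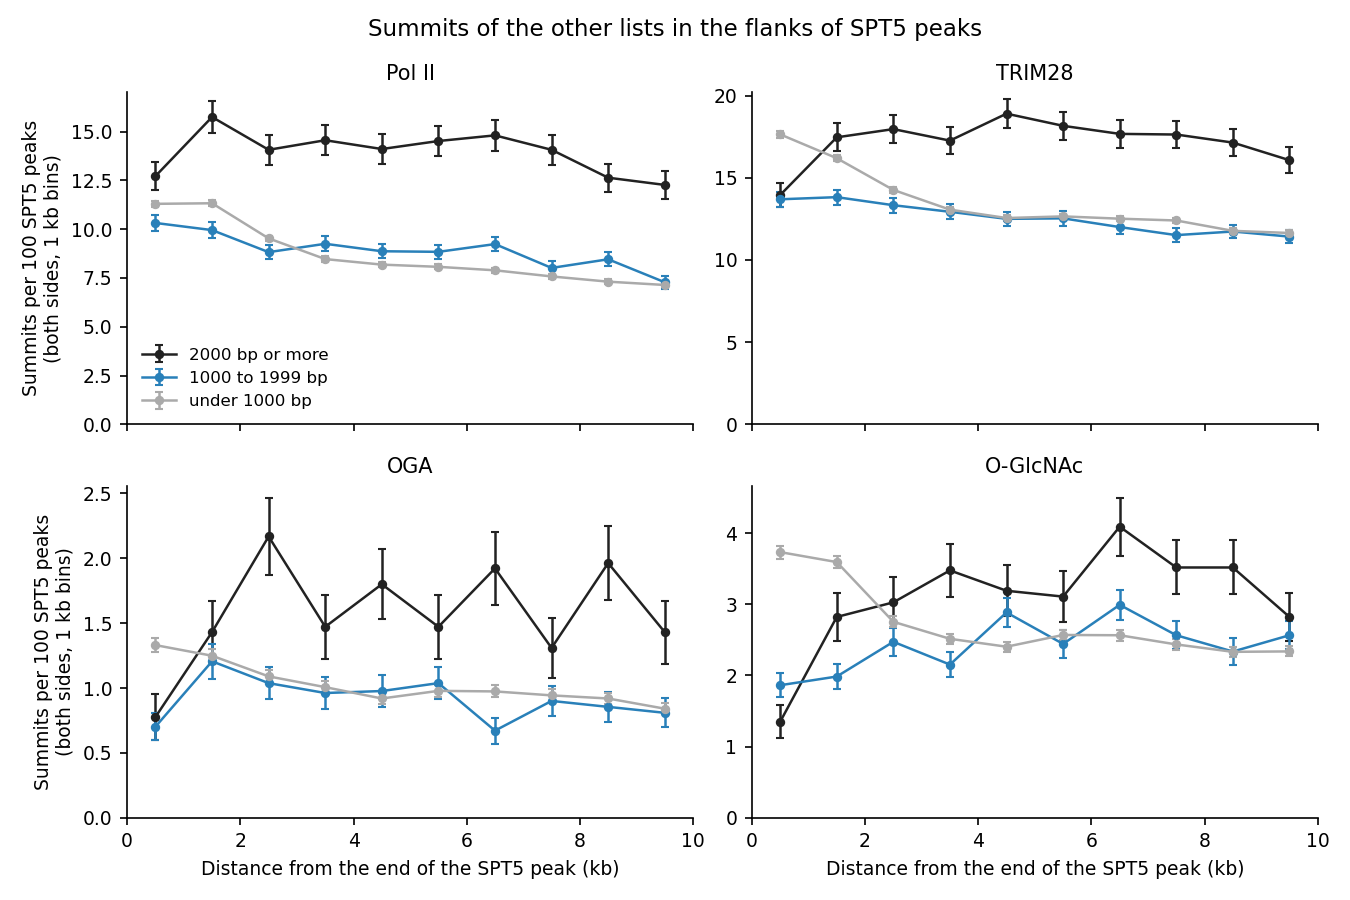
Summits of each other list per 100 SPT5 peaks (y axis, own scale per panel, both sides summed) by distance from the end of the SPT5 peak in bins of 1 kb (x axis), for domains of 2000 bp or more (black), peaks of 1 to 2 kb (blue) and peaks under 1000 bp (grey). Bars are the square root of the count and cover counting error only. O-GlcNAc summits in the first 1 kb numbered 1.35 per 100 domains and 3.73 per 100 peaks under 1000 bp.

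SPT5 itself was dense around the domains. They had a mean of 5.996 other SPT5 summits in the flanks, against 4.48 for narrower peaks, and 70.9% had another SPT5 peak within 500 bp, against 46.2%. Another domain lay within 10 kb of 934 domains (38.2%). For these, the flanks of 1 domain take in another, and the part of this clustering in the flank differences was not tested.

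Flanks differed between domains with and without Pol II for 3 of the 4 lists. Pol II summits were in the flanks of 58.1% of domains with Pol II inside and 50.0% of those without, a difference of 8.12 points (3.79 to 12.4). TRIM28 summits were in the flanks of 69.8% and 63.5%, a difference of 6.31 points (2.23 to 10.5). O-GlcNAc went the other way, at 21.8% and 26.7%, a difference of −4.96 points (−8.80 to −1.28). For OGA the shares were 12.9% and 13.4%, with an interval of the difference from −3.57 to 2.32 points.

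Domains were found on all 22 autosomes. Their share of the SPT5 peaks of a chromosome was lowest on chromosome 3 (3.17%, 2.64% to 3.79%) and highest on chromosome 22 (6.24%, 5.16% to 7.53%), where the intervals did not overlap. The share of domains with Pol II ran from 58.0% on chromosome 20 to 81.3% on chromosome 14.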

How the data were processed

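Each of the 5 antibodies has 1 list in the narrowPeak layout, as deposited by the authors. The submitters' processing notes name bcl2fastq (2.17), Trimmomatic (0.30), Bowtie2 (2.1.0) and build hg19. The peak caller, control and threshold used, not given in the sources used here, were not assumed. Fold enrichment, as deposited by the authors, sets each peak's signal over an unnamed background, and it served only to describe, rank or stratify peaks of the same list. The deposited −log10 q served for the stricter threshold of 5, and the deposited −log10 p ranked the lists that were shortened. The deposited score was not used. The summit position is the authors' as well. Read totals were not analysed here, so depth is unknown.

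Peaks on chromosomes 1 to 22 were used, and an overlap was 1 bp or more. Shares have 95% Wilson intervals, their differences Newcombe intervals, differences over 10 strata Mantel-Haenszel estimates with Greenland-Robins intervals, and medians order-statistic intervals. Each comparison was a share or median over peaks of 1 library, so no test between replicates was possible. The calculations were tested on simulated data and against bedtools 2.31.1, with Python 3.11.15, numpy 2.4.6, pandas 2.3.3, scipy 1.17.1 and matplotlib 3.10.9.

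The domains, the classes and the comparisons were chosen with earlier results of these data known. Named sites are the 5 widest, the 5 highest in SPT5, the 5 with all 4 other lists ranked by OGA fold enrichment, the 3 widest without Pol II, the 3 widest without any other list, the 3 with most Pol II peaks, and 3 on each side of the width threshold. Alternatives were other width limits, overlaps, flanks and thresholds, shorter lists, merged SPT5 peaks, addition of chromosome X, the summit window, the strata and the class of 1 to 2 kb. Combinations of the last 3, and differences recomputed within domains under the other settings, were chosen after seeing the data. The gene tables at hand were of another build, so no genes or sequences are given.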

Additional observations from a re-analysis of the deposited data

Results flagged for a closer look

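Chromosome X was outside the chromosomes compared, and it held 30 SPT5 peaks of 2000 bp or more among 1155 (2.60%). A Pol II peak overlapped 23 of the 30 (76.7%, Wilson interval 59.1% to 88.2%), and their median width was 2603 bp. They stood out only because they met the width rule outside the peaks used in the comparisons.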

How the results depend on the processing

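Of 194 alternatives to 22 results, 148 kept the direction and the call or stayed within the interval, 27 moved a value, 6 lost the call and 13 turned the direction. Directions turned in the difference from narrower peaks and, once, in the flanks. A turn was counted by the sign alone. The interval reached 0 for the Pol II value of −1.62 and the O-GlcNAc flank value of −1.08 below. For Pol II the difference was −6.82 points over strata, −10.4 in the window over strata, 1.01 against peaks of 1 to 2 kb (call lost), −1.62 against that class in the window and −6.84 against it over strata. For TRIM28 it was −5.68 in the window over strata, −3.44 against peaks of 1 to 2 kb in the window and −2.75 against that class over strata. For O-GlcNAc it was −8.18 against peaks of 1 to 2 kb, −13.9 over strata, −16.3 in the window over strata, −9.97 against that class in the window and −13.6 against it over strata. OGA lost its call against that class in the window (0.292). The flank difference of O-GlcNAc lost its call with domains from 1500 bp (1.00), from 3000 bp (0.972) and with lists at the OGA length (0.960), and turned to −1.08 in 5 kb flanks. TRIM28 with minus without Pol II lost its call at the OGA length (0.684), where both lists were shortened. The cause of these changes was not tested.

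Shares of domains moved as follows. From 1500 bp, OGA was at 10.4% and O-GlcNAc at 35.4%; from 3000 bp, Pol II was at 67.8%, OGA at 13.4% and O-GlcNAc at 25.7%. With a −log10 q of at least 5, Pol II was at 66.0%, TRIM28 at 52.1%, OGA at 7.20% and O-GlcNAc at 29.4%. At the OGA length, Pol II was at 18.8%, TRIM28 at 1.84% and O-GlcNAc at 9.28%. With SPT5 peaks within 500 bp merged, they were at 62.1%, 59.3% and 29.5%. The share of summits near an end was 3.51% from 1500 bp, 5.42% from 3000 bp, 10.8% with merging and 2.58% for a 250 bp edge. Taking the widest Pol II peak for the highest gave 81.7% on the SPT5 summit's side. Median distances moved to 22 bp (stricter q) and 11 bp (OGA length) for Pol II, 184 bp (from 3000 bp), 195 bp (stricter q) and 451 bp (OGA length) for TRIM28, 394 bp (from 3000 bp) for OGA and 208 bp (OGA length) for O-GlcNAc.

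No paired analysis was possible because each antibody has 1 library, and leaving out a replicate was not possible either. Depth is unknown, and absence of a called peak is not absence of the factor. The OGA list is the shortest, with 2503 peaks.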

Other observations

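Outside the chromosomes compared and chromosome X, SPT5 peaks of 2000 bp or more were found once on chromosome Y and once on the mitochondrial genome. The mitochondrial one spanned 16562 bp with an SPT5 fold enrichment of 1.62 and no Pol II peak.

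The 138 domains with all 4 other lists had a median SPT5 fold enrichment of 9.77 and a median width of 2859 bp, close to the 2854 bp of the 604 domains with no other list, whose median fold enrichment was 5.33. The 556 domains with Pol II, TRIM28 and O-GlcNAc but no OGA were narrower, at a median of 2536 bp, and the 133 with Pol II, TRIM28 and OGA but no O-GlcNAc were wider, at 3116 bp. These medians carry no test, since SPT5 width chose the domains.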
